A study of Mus musculus with 6 samples.

Results

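The genes described are 9 genes of the plasminogen activation system and the serpin family, out of 35905 genes to which transcripts were assigned. They are Plat, Plau and Plaur, which encode the plasminogen activators and a receptor, and the inhibitor-family genes Serpine2, Serpinf1, Serping1, Serpinh1, Serpinb2 and Serpinb9. They were chosen by name with their difference between the lines known, above all that of Serpinf1 and Plat, so every difference between the lines given for them is a description and carries no test. All 9 were found in the files. Of these, 7 passed the filter on low counts and 2, Serping1 and Serpinb2, did not.

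The samples were cultures of mouse EO771 breast cancer cells, a mammary tumour line, in the forms that the labels call EO771-tdT-LM2 and EO771-tdT-Parental, named LM2 and Parental here. Both carry tdT in their name and the genotype label WT, and both were kept for 48 h in RPMI 1640 with 10% serum until about 75% of the flask was covered. Each line gave 3 RNA sequencing libraries, with 33922699 to 45849019 estimated counts per library. The labels do not say how LM2 was obtained, what the tag Ac6 in the Parental titles means, or whether the replicates were separate cultures. Where p-values are given they rest on the spread among these 6 libraries, part or all of which may be technical. Each line is a single culture model, so a difference belongs to this pair of lines.

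Plasminogen activators are secreted serine proteases that cut the inactive protein plasminogen into plasmin, which degrades fibrin and other matrix proteins and activates further proteases. Tissue-type activator (Plat) cuts plasminogen mainly on the surface of fibrin, while urokinase (Plau) is held at the cell surface by its receptor (Plaur). Serpins are suicide inhibitors: a protease cuts their exposed loop and is trapped in a covalent complex. Some members of the family, such as the collagen chaperone Serpinh1 and the secreted factor Serpinf1, keep the serpin fold without blocking proteases.

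In LM2, RNA of 4 of the 9 genes was higher than in Parental. Serpinf1 was 17.9-fold higher, Plat 2.77-fold, Plau 1.48-fold and Serpinh1 1.15-fold. The libraries of the lines did not overlap for these 4 genes and overlapped for Plaur, Serpinb9 and Serpine2. Over all 13247 genes tested in edgeR's quasi-likelihood fit, 62.4% had a Benjamini-Hochberg adjusted p below 0.05, 31.4% as higher in LM2. The libraries of the lines did not overlap for 67% of the tested genes, so nothing is read from the count of 4. The median log2 fold change of LM2 over Parental was 0.20 over the 7 genes and -0.00 over all tested genes. Nothing is read from these medians either, since the 7 genes were chosen with their differences known. RNA from a whole culture does not separate a difference in the share of cells that express a gene from a difference in RNA per cell.

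**Figure D1:**
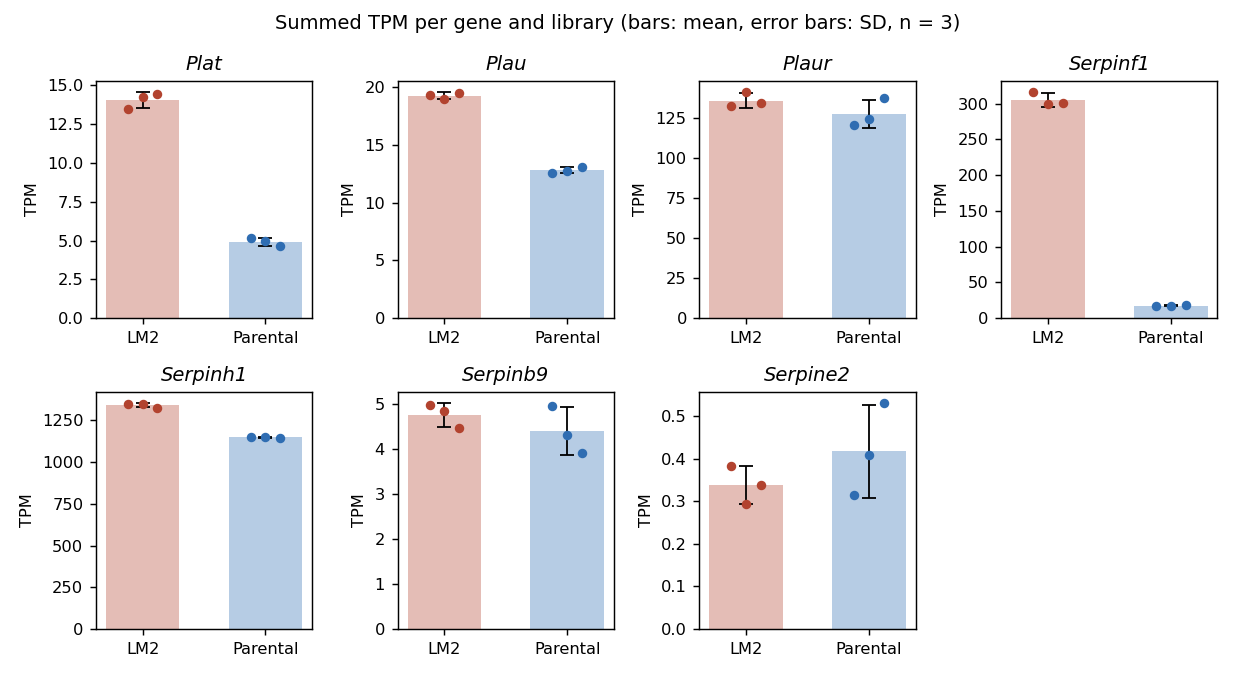
Level of each filtered gene in TPM (y axis, starting at 0) in LM2 (left, red) and Parental (right, blue). Each point is 1 library, bars are means and error bars SD (n = 3 each). The lines separate for Plat, Plau, Serpinf1 and Serpinh1 and overlap for Plaur, Serpinb9 and Serpine2.

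Levels are compared between genes in TPM, the transcript abundance unit of kallisto, which corrects for transcript length and depth. In LM2 the order from high to low was Serpinh1, Serpinf1, Plaur, Plau, Plat, Serpinb9 and Serpine2, and no neighbours in this order overlapped between libraries. In Parental the order was Serpinh1, Plaur, Serpinf1, Plau, Plat, Serpinb9 and Serpine2, where the ranges of Plat and Serpinb9 overlapped. By mean TPM, Serpinf1 ranked 472 among all genes in LM2 and 6738 in Parental. Serpinh1 ranked 122 in LM2 and 136 in Parental, and Plaur 1203 in LM2 and 1303 in Parental. Between the lines Serpinf1 and Plaur exchanged places and the other 5 genes kept theirs.

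The promoters of 6 of the 9 genes were present in the RefSeq table, as 250 bases before an annotated start on GRCm38.p6, while the reads were assigned on GRCm39. Those of Plat, Plau and Serping1 were not shown here. The following 4 are given because they belong to the gene with the largest difference, the most abundant gene, the urokinase receptor and the granzyme inhibitor. They read 5′ to 3′ toward the start on the gene's own strand. They lie at chr11:75422624-75422873 on the minus strand (Serpinf1), chr7:99353240-99353489 on the minus strand (Serpinh1), chr7:24462233-24462482 on the plus strand (Plaur) and chr13:33004291-33004540 on the plus strand (Serpinb9). Capitals mark matches, on either strand, to the TATA box TATAAA, the Sp1 box GGGCGG, the CCAAT box, the AP-1 element TGANTCA, the heat shock element core GAANNTTC, the Smad element CAGACA, the E-box CACGTG and the interferon-stimulated response element, searched as GAAA, any 2 bases and GAAA.
Serpinf1: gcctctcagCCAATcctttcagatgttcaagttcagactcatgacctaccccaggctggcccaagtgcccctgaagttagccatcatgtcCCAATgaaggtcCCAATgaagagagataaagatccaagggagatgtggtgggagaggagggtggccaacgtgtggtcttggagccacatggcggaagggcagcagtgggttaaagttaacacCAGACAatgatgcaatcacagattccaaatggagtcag
Serpinh1: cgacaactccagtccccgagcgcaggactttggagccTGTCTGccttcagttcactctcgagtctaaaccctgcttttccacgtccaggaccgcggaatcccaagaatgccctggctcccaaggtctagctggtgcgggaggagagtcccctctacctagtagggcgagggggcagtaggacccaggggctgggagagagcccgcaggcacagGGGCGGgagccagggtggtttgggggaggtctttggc
Plaur: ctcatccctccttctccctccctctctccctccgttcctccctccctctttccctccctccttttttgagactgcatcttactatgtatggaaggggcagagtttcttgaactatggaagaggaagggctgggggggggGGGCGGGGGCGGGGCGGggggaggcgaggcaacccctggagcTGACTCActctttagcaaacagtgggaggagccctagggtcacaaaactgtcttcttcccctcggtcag
Serpinb9: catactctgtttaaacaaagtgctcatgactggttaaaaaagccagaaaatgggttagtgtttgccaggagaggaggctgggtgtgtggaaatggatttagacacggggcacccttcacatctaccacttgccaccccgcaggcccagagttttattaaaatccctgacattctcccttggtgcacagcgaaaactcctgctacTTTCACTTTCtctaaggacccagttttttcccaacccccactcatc

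The Serpinf1 promoter held 3 CCAAT boxes and 1 CAGACA. Its bases were 51.6% G or C, near the median of 52.4% over 32851 promoters. Serpinh1 held GGGCGG 37 to 32 bases before the start and a CAGACA on the other strand, and 63.6% of its bases were G or C. Plaur held 3 copies of GGGCGG, of which the last 2 share a base, and TGACTCA 69 to 63 bases before the start. Serpinb9 held a match to the interferon-stimulated response element on the other strand, 46 to 37 bases before the start. Among all promoters of this length, 33.8% held a CCAAT box, 32.7% an Sp1 box, 17.1% a Smad element, 6.75% the AP-1 element and 2.98% the interferon-stimulated response element. The matches are letters in a window, and binding was not measured.

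Plat, the tissue-type activator gene, was 2.77-fold higher in LM2 than in Parental. It had 13.4, 14.2 and 14.4 TPM in LM2 replicates 1 to 3, against 5.14, 4.94 and 4.65 TPM in Parental replicates 1 to 3. Every LM2 library lay above every Parental library, and the gap was far wider than the spread within a line. In CPM, read counts set against the scaled library total, Plat averaged 21.8 ± 0.512 CPM in LM2 and 7.85 ± 0.372 CPM in Parental (SD, n = 3 each), a fitted log2 fold change of 1.47 ± 0.06 (SE). Its main coding transcript Plat-201 carried 98.8% of the gene's TPM in LM2 and 98.6% in Parental.

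Plau, the urokinase gene, differed less. It had 19.3, 18.9 and 19.5 TPM in the LM2 libraries, against 12.6, 12.8 and 13.1 TPM in the Parental libraries. The lines did not overlap. The means were 27.5 ± 0.571 CPM in LM2 and 18.7 ± 0.455 CPM in Parental (SD, n = 3 each), with a log2 fold change of 0.56 ± 0.05 (SE). Nearly all of it came from Plau-201, with 100% of the TPM in LM2 and 99.6% in Parental.

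Plaur, the urokinase receptor gene, was more abundant than either activator in both lines. It had 132.5, 140.9 and 134.0 TPM in LM2, against 120.8, 124.2 and 137.1 TPM in Parental, where replicate 3 lay inside the LM2 range. The means of 102.8 ± 2.91 CPM in LM2 and 98.1 ± 4.04 CPM in Parental (SD, n = 3 each) gave a log2 fold change of 0.07 ± 0.03 (SE). Of its 6 transcripts, coding Plaur-201 had 97.1, 102.2 and 102.3 TPM in LM2, against 90.1, 91.3 and 93.3 TPM in Parental. For this transcript alone the libraries did not overlap. The retained-intron transcript Plaur-202, which makes no receptor, averaged 22.4 ± 1.64 TPM in LM2 and 24.7 ± 2.85 TPM in Parental (SD, n = 3 each), with overlap. Transcripts without a coding label held 25.9% of the gene's TPM in LM2 and 27.9% in Parental, and this share overlapped between libraries of the lines.

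Serpinf1, which encodes pigment epithelium-derived factor, a secreted serpin known as an inhibitor of new vessel growth, showed the largest difference of the 9 genes. Its estimated counts were 6255, 6236 and 7021 in LM2, against 457, 377 and 414 in Parental. In TPM it stood at 315.7, 298.8 and 300.7 in LM2, against 17.3, 17.6 and 17.8 in Parental. All 3 LM2 libraries were far above all 3 Parental libraries, and the libraries of a line lay close together. The means were 183 ± 2.01 CPM in LM2 and 10.2 ± 0.173 CPM in Parental (SD, n = 3 each), and the log2 fold change was 4.16 ± 0.04 (SE). Among all tested genes, 111 had a larger log2 fold change than Serpinf1 and 562 a larger one than Plat.

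All 8 annotated Serpinf1 transcripts had counts, and 3 held at least 10% of its TPM in a line. Coding Serpinf1-201 averaged 102 ± 9.66 TPM in LM2 and 5.19 ± 0.230 TPM in Parental (SD, n = 3 each), a ratio of 19.7. Coding Serpinf1-202 averaged 109 ± 4.03 TPM in LM2 and 5.89 ± 1.08 TPM in Parental, a ratio of 18.6. Serpinf1-208, annotated as a target of nonsense-mediated decay, the pathway that removes transcripts with early stop codons, averaged 52.6 ± 3.59 TPM in LM2 and 3.64 ± 0.785 TPM in Parental, a ratio of 14.5. The difference was thus present in each of the 3. Coding transcripts together made up 71.4% of the gene's TPM in LM2 and 66.0% in Parental, and this share overlapped between libraries of the lines. kallisto shares reads between transcripts of a gene by estimation, so these splits are less certain than the gene totals.

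**Figure D2:**
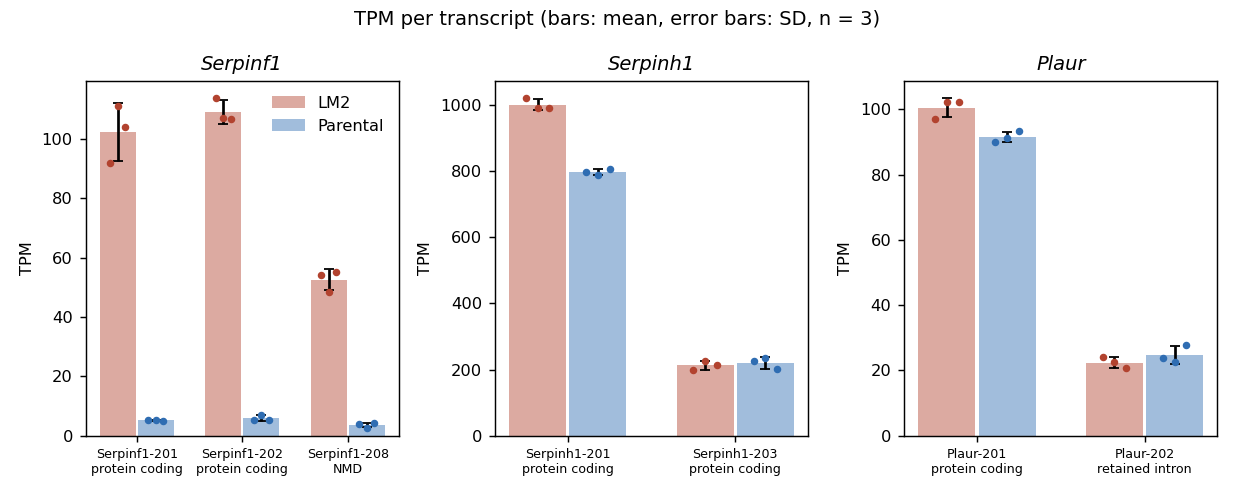
TPM (y axis) of each Serpinf1, Serpinh1 and Plaur transcript that held at least 10% of its gene's TPM, with LM2 in red on the left and Parental in blue on the right. Points are libraries, bars means and error bars SD (n = 3 each). All 3 Serpinf1 transcripts were higher in LM2, while Serpinh1-203 and Plaur-202 overlapped between the lines.

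Serpinh1 encodes HSP47, a chaperone of the endoplasmic reticulum that folds procollagen and does not inhibit proteases. It was the most abundant of the 9 genes, with 1348, 1349 and 1326 TPM in LM2, against 1153, 1148 and 1144 TPM in Parental. The libraries did not overlap, although the difference was small. The means were 1762 ± 22.2 CPM in LM2 and 1531 ± 5.01 CPM in Parental (SD, n = 3 each), with a log2 fold change of 0.20 ± 0.02 (SE). Serpinh1-201 averaged 1000.3 ± 17.5 TPM in LM2 and 797 ± 9.37 TPM in Parental, and made up 74.6% of the gene's TPM in LM2 and 69.4% in Parental. Serpinh1-203 averaged 212 ± 13.5 TPM in LM2 and 221 ± 18.01 TPM in Parental (SD, n = 3 each), and its libraries overlapped. Both transcripts are annotated as coding.

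Serpinb9, an intracellular serpin that inhibits granzyme B, was at a low level that overlapped between the lines. It had 4.97, 4.84 and 4.46 TPM in LM2, against 4.97, 4.32 and 3.92 TPM in Parental. The log2 fold change was 0.08 ± 0.09 (SE). Of its 31-base words, 4.94% also occur in transcripts of other genes, mostly Serpinb9b, so a part of its reads could be split with that gene.

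Serpine2 encodes protease nexin-1, which inhibits thrombin, urokinase and plasmin. Its RNA was at a low level, with 29, 21 and 27 counts in LM2, against 31, 32 and 47 in Parental. Its TPM of 0.384, 0.294 and 0.338 in LM2, against 0.313, 0.408 and 0.530 in Parental, overlapped. The log2 fold change of -0.32 ± 0.30 (SE) was about as large as its error. All of these counts fell on Serpine2-206, a retained-intron transcript, and its coding transcripts had none in any library.

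Serping1, the inhibitor of the complement proteases C1r and C1s and of plasma kallikrein, had 0, 0 and 1 count in LM2 and 0 counts in each Parental library. Serpinb2, the inhibitor of plasminogen activators known as PAI-2, had 0 counts in each LM2 library, against 1, 6 and 0 in Parental. Of the Serpinb2 words, 11.2% are shared with the overlapping Serpinb10 on the same strand, which had 0 counts. At these depths 0 counts allow up to 3 counts per library, or 0.0659 to 0.0890 CPM, for counting error only. No fold change is given for these genes.

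The spread between libraries differed among the genes. The coefficient of variation of CPM was 1.10% in LM2 and 1.69% in Parental for Serpinf1, 1.26% in LM2 and 0.327% in Parental for Serpinh1, and 2.35% in LM2 and 4.73% in Parental for Plat. It was 2.07% in LM2 and 2.44% in Parental for Plau, and 2.83% in LM2 and 4.12% in Parental for Plaur. For Serpinb9 it was 6.23% in LM2 and 11.8% in Parental. For the low gene Serpine2 it was 15.1% in LM2 and 26.7% in Parental. The median over all tested genes was 4.42% in LM2 and 3.70% in Parental.

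Fold changes in the authors' deposited table, whose scale and direction are not written there and were read from their closeness to the log2 values of LM2 over Parental, covered 6 of the 9 genes. In the authors' deposited table Serpinf1 stood at 4.08, Plat at 1.48, Plau at 0.57, Serpinh1 at 0.29, Plaur at 0.11 and Serpinb9 at 0.09. Over the 10531 genes matched to the authors' deposited table, 92.1% lay within 0.2 of the fitted value.

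The differences of Plat and Serpinf1 were set beside those of the other genes on their chromosomes. On chromosome 8, which carries Plat, the median log2 fold change of 702 tested genes was -0.31 and 24.5% were above 0. Plat, at 1.47, was exceeded by 23 of them. On chromosome 11, which carries Serpinf1, the median over 1078 tested genes was -0.01, and 4 genes had a larger log2 fold change than Serpinf1. Of the next tested genes in annotation order, Smyd4 before Serpinf1 had 90.2 ± 4.22 CPM in LM2 and 63.3 ± 2.68 CPM in Parental (SD, n = 3 each), for a fitted log2 difference of 0.51 with an edgeR adjusted p of 4.13e-10. Wdr81 after Serpinf1 had a log2 fold change of 0.38 (edgeR adjusted p = 1.79e-07). Ikbkb before Plat had a log2 fold change of -0.22 (edgeR adjusted p = 5.06e-06), and Ap3m2 after it one of 0.08 (edgeR adjusted p = 0.414). Each neighbour thus differed far less than the gene beside it. For the other genes the chromosome medians lay between -0.02 and 0.06.

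**Figure D3:**
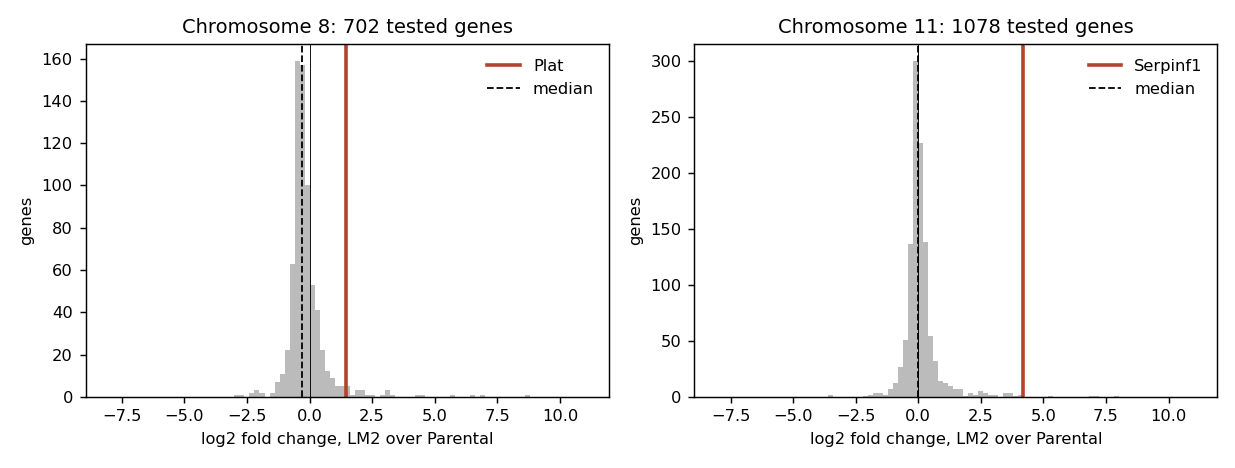
Histograms of log2 fold changes of LM2 over Parental (x axis) for the tested genes of chromosome 8 and chromosome 11 (y axis, number of genes). The red line marks Plat at 1.47 on the left and Serpinf1 at 4.16 on the right, and the dashed line the chromosome's median, -0.31 and -0.01.

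Among 9729 candidate genes of at least 5 mean CPM, the profiles most like that of Serpinf1 over the 6 libraries, by Euclidean distance of centred log2 CPM, were those of Stra6 (distance 0.128), Prelp (0.210), Mylk (0.235) and Spn (0.317). Their log2 fold changes lay between 3.99 and 4.09. Among the 4 most like Plat were Hipk2 (0.0918) and Cd109 (0.137), with log2 fold changes of 1.54 and 1.45. The likeness rests mainly on the difference between 2 lines, which many genes share.

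Beyond those chosen, the files held 62 serpin genes. Of these, 26 had no count in any library and 11 were tested, of which 5 rose, 2 fell and 4 did not pass. The 7 called of 11 are a share near the 62.4% called over all tested genes. The median log2 fold change of the 11 was 0.63, against -0.00 over all tested genes. It is the value of a low gene, Serpina11, with 62 counts in LM2 and 46 in Parental, which did not pass (edgeR adjusted p = 0.156). Nothing is read from that median. Serpinb6a, whose human relative inhibits cathepsin G inside cells, fell by 0.26 on the log2 scale, with 126.7 ± 2.28 CPM in LM2 and 151.5 ± 4.28 CPM in Parental (edgeR adjusted p = 4.07e-08). Of the Serpinb6a words 29% are shared, more with Nqo2 than with any other gene. Serpinb9b, the close relative of Serpinb9, had 57.7 ± 1.82 CPM in LM2 and 60.2 ± 2.01 CPM in Parental (edgeR adjusted p = 0.14). Serpinc1, the gene of antithrombin, had 1.15 ± 0.376 CPM in LM2 and 0.968 ± 0.262 CPM in Parental (edgeR adjusted p = 0.488), with 35.6% of its words shared. Of the called genes, Serpinb1a, Serpinb6b, Serpinb8 and Serpinb9c rose and Serpina1e fell. All of these are low and are named after their values were seen.

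Serpinb9 lies in a cluster of 15 coding clade B serpin genes on chromosome 13, between Serpinb6b and Serpinb9b. Serpinb6b had 288 counts in the LM2 libraries together and 1 in the Parental libraries, a ratio of 330.5 after scaling for depth, with an exact 95% interval of 58.8 to 13098.5 for counting error only. The size of this difference is uncertain: the fitted log2 difference was 7.89, while Serpinb6b stood at 5.42 in the authors' deposited table. Serpinb1a averaged 2.39 ± 0.340 CPM in LM2 and 0.523 ± 0.125 CPM in Parental (SD, n = 3 each), for a fitted log2 difference of 2.17 (edgeR adjusted p = 1.49e-07). Serpinb9c, with 66 counts in LM2 and 32 in Parental, was called higher, though not under every alternative. Serpinb6a, at the other end of the cluster, was lower in LM2, and Serpinb9b did not pass the threshold. Serpinb6c, Serpinb6d and Serpinb6e had 0 counts in all 6 libraries. Serpinb9 thus lay beside a gene with nearly no Parental reads while its own ranges overlapped.

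**Figure D4:**
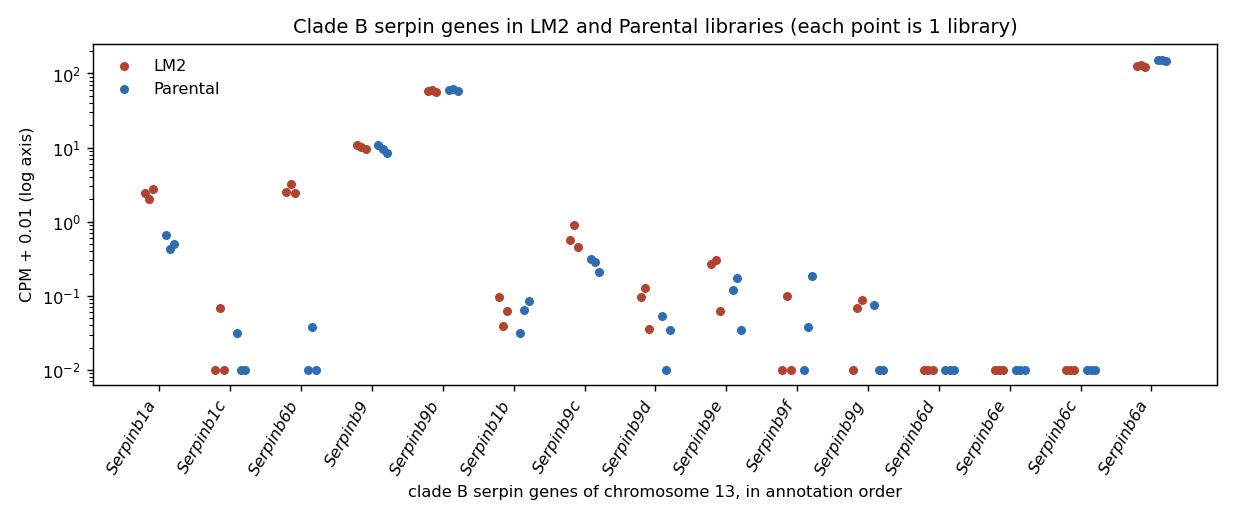
CPM plus 0.01 on a log axis (y) of the 15 clade B serpin genes of chromosome 13 in annotation order (x), with LM2 in red on the left and Parental in blue on the right of each place and 1 point per library. CPM is not length-corrected, so points are to be compared within a gene. Serpinb6b and Serpinb1a were higher in LM2, while Serpinb9 overlapped between the lines.

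Genes that bring plasminogen to the cell surface, clear activator complexes or partner the urokinase receptor formed a list of 18, of which 12 were tested. Of these, 6 rose, 3 fell and 3 did not pass, with a median log2 fold change of 0.00. The 9 called of 12 stand beside 62.4% called over all tested genes. Plg itself, the gene of plasminogen, had 0 counts in all 6 libraries. Among surface binders of plasminogen, annexin A2 (Anxa2) averaged 895 ± 15.6 CPM in LM2 and 670 ± 12.6 CPM in Parental (SD, n = 3 each), for a fitted log2 difference of 0.42 (edgeR adjusted p = 1.20e-12). The enolase Eno1 rose by 0.45 on the log2 scale (edgeR adjusted p = 2.56e-14), with 28.5% of its words shared, most with Eno1b. Hmgb1 fell by 0.35 (edgeR adjusted p = 1.18e-10), with 24.7% of its words shared. The plasminogen receptor Plgrkt had 8.08 CPM in LM2 and 8.87 CPM in Parental and did not pass (edgeR adjusted p = 0.156).

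Among clearance receptors, Igf2r, which binds the urokinase receptor and mannose 6-phosphate ligands, had 48.8 ± 2.15 CPM in LM2 and 27.6 ± 0.791 CPM in Parental (SD, n = 3 each), for a fitted log2 difference of 0.82 (edgeR adjusted p = 8.68e-13). In the authors' deposited table Igf2r stood at 1.19. Lrp2, the endocytic receptor megalin, had 85.9 ± 11.9 CPM in LM2 and 172 ± 12.8 CPM in Parental, and fell (edgeR adjusted p = 0.00224). Lrp1, which takes up complexes of activators with their inhibitors, had 284 ± 39.1 CPM in LM2 and 369 ± 24.6 CPM in Parental and did not pass (edgeR adjusted p = 0.0586), but it passed without LM2 replicate 2, with DESeq2 and with length offsets. Integrin beta 1 (Itgb1), a partner of the urokinase receptor, fell by 0.35 on the log2 scale (edgeR adjusted p = 3.34e-11).

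Clotting and pericellular protease genes formed a list of 20, of which 12 were tested. Of these, 10 rose, 1 fell and 1 did not pass, with a median log2 fold change of 0.68. Over all tested genes 31.4% rose and 31.1% fell. The list was written with earlier results of these data known, and the 10 include Thbd, which had reads in LM2 only. Nothing is therefore read from the count or the median. Htra1, a secreted serine protease of the matrix, averaged 93.4 ± 0.625 CPM in LM2 and 29.1 ± 0.522 CPM in Parental (SD, n = 3 each), 3.21-fold higher (edgeR adjusted p = 1.85e-20). The related protease Htra3 had a log2 fold change of 0.72 (edgeR adjusted p = 1.07e-08). Tissue factor (F3), which starts clotting, had 62.2 ± 3.95 CPM in LM2 and 42.2 ± 1.86 CPM in Parental, a log2 fold change of 0.56 (edgeR adjusted p = 2.89e-09). Its inhibitor Tfpi had 44.8 ± 2.79 CPM in LM2 and 58.9 ± 1.18 CPM in Parental and fell by 0.40 (edgeR adjusted p = 3.04e-08).

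Of the protease-activated receptors the list holds F2r and F2rl1, and both rose. The thrombin receptor F2r had 183 ± 2.55 CPM in LM2 and 125 ± 2.50 CPM in Parental (SD, n = 3 each), for a fitted log2 difference of 0.55 (edgeR adjusted p = 4.88e-14). F2rl1, cleaved by trypsin-like proteases, had a log2 fold change of 0.64 (edgeR adjusted p = 8.44e-11). The Kunitz inhibitor Spint2 had 7.34 CPM in LM2 and 7.47 CPM in Parental and did not pass (edgeR adjusted p = 0.841). Thbd, the gene of thrombomodulin and named after its values were seen, had 81 counts over the LM2 libraries and 0 over the Parental libraries, and no fold change is given for it. Among the 10 that rose, Proc lost its call in 10 of 11 alternatives, among them leaving out any 1 library, and Procr in 5 of 12, both named after their values were seen.

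Genes whose products meet these serpins formed a list of 18, of which 5 were tested, with 1 rise, 2 falls and 2 that did not pass and a median log2 fold change of -0.15. The 3 called of 5 are likewise near the 62.4% over all tested genes. Pnpla2, a lipase described as a receptor for the Serpinf1 product, averaged 44.0 ± 0.997 CPM in LM2 and 32.7 ± 0.418 CPM in Parental (SD, n = 3 each), for a fitted log2 difference of 0.43 (edgeR adjusted p = 9.75e-09). Rpsa, a laminin receptor also described as a binding partner, fell by 0.15 (edgeR adjusted p = 4.46e-06), with 31.2% of its words shared. The complement protease gene C1ra, a target of the Serping1 product, had a log2 fold change of -0.16 and did not pass (edgeR adjusted p = 0.143), and 59.6% of its words are shared. Gzmb, the target of the Serpinb9 product, had 0 counts in all 6 libraries, as had Gzma, Ctsg, F11 and C1rb.

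**Figure D5:**
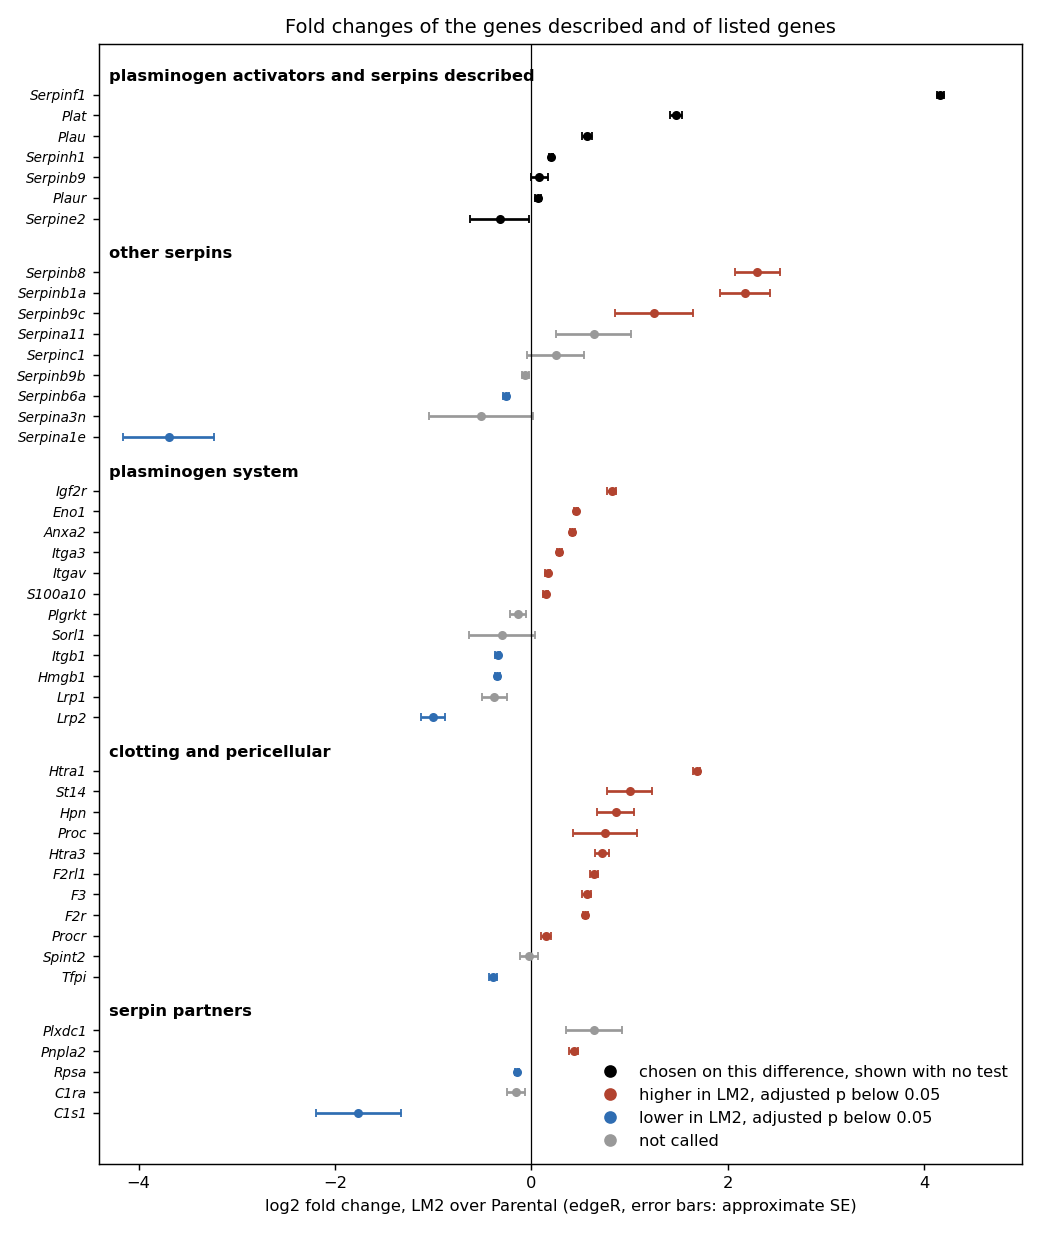
Log2 fold changes of LM2 over Parental (x axis) with approximate SE for the chosen genes (black, with no test) and for the tested genes of the other lists (red, higher in LM2; blue, lower; grey, not past an edgeR adjusted p of 0.05). Serpinb6b and Thbd, with 1 and 0 Parental counts, are left out, and not every tested serpin is drawn. Serpinf1 at 4.16 is the highest of the genes drawn.

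Markers of the line and of other cell types were summed per library. Epithelial markers summed to 490.6 to 513.8 TPM in LM2 and 346.2 to 358.7 TPM in Parental, nearly all of it Krt8, while Krt18 and Cdh1 were near 0 in both lines and Epcam had 1592 counts in LM2 and 19 in Parental. Fibroblast markers summed to 56.4 to 67.0 TPM in LM2 and 41.0 to 42.1 TPM in Parental, most of it Pdgfra, with Dcn and Lum near 0. Leukocyte markers summed to 3.70 to 4.33 TPM in LM2 and 0.117 to 0.261 TPM in Parental, nearly all of it Cd79a, with Adgre1 at 0 and Ptprc at 8 counts in each line. Endothelial markers summed to 2.42 to 2.63 TPM in LM2 and 2.12 to 3.28 TPM in Parental, most of it Pecam1. The endothelial marker Cdh5 had 71 counts in LM2 and 22 in Parental and was called higher (edgeR adjusted p = 0.000528). Hepatocyte markers summed to 0.528 to 0.984 TPM in LM2 and 0.480 to 0.701 TPM in Parental, with 3 of 6 at 0. Most of this sum was Serpinc1, with 35.6% of its words shared with other genes. The part of the epithelial, fibroblast, leukocyte and endothelial marker differences in the values above was not tested.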

How the data were processed

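Groups and replicate numbers came from the sample titles. The authors deposited a table per library with estimated counts, TPM and lengths of 117486 transcripts, made with kallisto 0.46.2 on GRCm39 per the submitters' processing notes. Those notes name edgeR 3.32.1, FastQC and MultiQC too. The authors deposited log2 fold changes of 11005 gene symbols as well. Strand handling is not given in the sources used here.

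Transcripts were assigned to genes by Ensembl identifier with GENCODE M21, which is on GRCm38 and gave only names, types, chromosomes and gene order. Of the transcripts 116408 (99.1%) matched, and the rest held 0.426% to 0.448% of the counts. Estimated counts were summed per gene, rounded, filtered with filterByExpr, scaled by TMM and fitted with the robust quasi-likelihood test of edgeR 4.0.16 in R 4.3.3, LM2 minus Parental, with Benjamini-Hochberg adjustment over 13247 genes at 0.05. The SE is the log2 fold change divided by the root of F. CPM is after TMM scaling. Deposited TPM values were summed per gene with no pseudocount. The fit was also run on simulated data with far fewer changed genes than were called here. That run does not show its error rate on these data.

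The genes and lists were chosen with earlier results of these data known. From each other list the rule named called genes of at least 5 CPM, up to 6 by size of change, and up to 3 abundant genes that were not called; transcripts were named from 10% of a gene's TPM. Some genes that the rules gave are not reported here. Alternatives were DESeq2 1.42.0, its size factors, other filters, length offsets, coding transcripts only, the ratio of TPM means, a replicate block, and leaving out each library.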

Additional observations from a re-analysis of the deposited data

How the results depend on the processing

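All counts of called genes stayed within 1.5 times the reported ones under the alternatives run. Of all tested genes 8272 were called, against 7708 with DESeq2, 8263 with its size factors, 8596 with no filter on low counts, 7881 with a minimum of 1 CPM in 3 libraries, 6981 with transcript length offsets and 7778 to 8258 when 1 library was left out. The counts were 5 to 8 for the other serpins (7 reported), 9 to 11 for the plasminogen system (9), 9 to 11 for clotting and pericellular proteases (11) and 2 to 4 for serpin partners (3). Serpinb9c lost its call without LM2 replicate 2 and with length offsets, and C1s1 with length offsets. Calls were gained by Serpina3n without LM2 replicate 3, by Sorl1 with length offsets, and by Plxdc1 without LM2 replicate 3, without Parental replicate 2 and with the 1 CPM minimum.

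The log2 fold changes of the chosen genes spanned 4.07 to 4.24 for Serpinf1, 1.43 to 1.51 for Plat, 0.54 to 0.59 for Plau, 0.18 to 0.22 for Serpinh1, 0.04 to 0.11 for Plaur and -0.50 to -0.11 for Serpine2. Serpinb9 spanned -0.00, without Parental replicate 3, to 0.18, without Parental replicate 1.

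Replicate numbers of the lines did not pair the libraries: same-numbered libraries correlated at -0.078, 0.0452 and 0.0147 in their deviations from the line means. With the replicate block 8250 genes were called, and the lists had 7, 9, 10 and 3. Depth limits Serpine2, Serping1 and Serpinb2, whose counts are at most 47 per library.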

Other observations

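The following ratios were formed after the values were seen and carry no test. The sum of Plat and Plau was 33.3 ± 0.573 TPM in LM2 and 17.7 ± 0.0122 TPM in Parental (SD, n = 3 each). In Parental the SD was 0.246 TPM for Plat and 0.257 TPM for Plau. From Parental replicate 1 to 3 Plat fell while Plau rose, so the small SD of the sum reflects opposite shifts. Plau RNA exceeded Plat RNA 1.37-fold ± 0.0566 in LM2 and 2.61-fold ± 0.186 in Parental. The RNA levels of the pair were thus nearer to each other in LM2. The receptor gene Plaur stood at 7.06 ± 0.337 times Plau in LM2 and 9.94 ± 0.477 times in Parental.

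All serpin genes together held 1965 ± 25.9 TPM in LM2 and 1429.8 ± 13.2 TPM in Parental (SD, n = 3 each). Serpinh1, the collagen chaperone, made up 68.2% ± 0.270 of this in LM2 and 80.3% ± 0.428 in Parental. Serpinf1 made up 15.5% ± 0.399 in LM2 and 1.23% ± 0.0288 in Parental. Serpinh1 exceeded Serpinf1 4.40-fold ± 0.123 in LM2 and 65.3-fold ± 1.18 in Parental.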
